A study of Mus musculus with 8 samples.

Results

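The genes described here are 10 members of the cytosolic DNA sensing pathway and of the p200 family, taken by symbol from a table of 43346 genes: Mb21d1 (cGAS), Tmem173 (STING), Trex1, Ikbke, Aim2, Ifi204, Ifi205, Mnda, Mndal and Pyhin1. Each symbol had exactly 1 row. They were measured by RNA sequencing of pooled cortex and hippocampus from mice of 1.5 months. The GFP group expressed enhanced green fluorescent protein, and the GFP-GR100 group expressed the same protein fused to 100 glycine-arginine dipeptides. Poly(GR) is a repeat protein made from the C9orf72 expansion of frontotemporal dementia and amyotrophic lateral sclerosis. Both constructs were carried in an adeno-associated viral plasmid, so the controls share the vector and GFP. The labels name no driving promoter, strain or route of delivery. Libraries 1 and 2 of each group came from females and libraries 3 and 4 from males, each from a separate animal.

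In this pathway cGAS binds DNA in the cytosol and makes the second messenger cGAMP, which activates STING on the endoplasmic reticulum. STING then recruits the kinase TBK1, and its relative IKK-epsilon, the product of Ikbke, to phosphorylate IRF3 and start interferon-beta transcription. Trex1 encodes an exonuclease that degrades cytosolic DNA. The p200 proteins, also called PYHIN or HIN-200 proteins, carry a DNA-binding HIN domain, a pyrin domain or both, and their mouse genes lie side by side on chromosome 1. AIM2 is the member that assembles an inflammasome on DNA. Many p200 genes are induced by interferon, and in the brain such genes are mostly studied in microglia.

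Library totals ran from 65880460 to 89113010 counts, and 3 counts equal 0.0337 to 0.0455 CPM, the read counts put on a common library size by the TMM method. The 10 markers of forebrain neurons, the labelled tissue, summed to between 5509 and 7237 CPM in the 8 libraries. The weight of cortex and hippocampus, from the labels, was 111.4 to 126.6 mg in GFP and 71.9 to 85.1 mg in GFP-GR100. The share of counts at 3 loci with ribosomal RNA sequence was higher in GFP females (6.74% and 11.4%) and GFP-GR100 males (8.77% and 9.83%) than in the other 4 libraries (2.76% to 3.80%). GFP 3 stood above the other GFP libraries in the 20 microglia markers, which summed to 840 CPM there and to 618, 592 and 619 CPM in GFP 1, 2 and 4.

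The p200 genes belong to 1 family, and their upstream sequence is shown first because most of them share an element there that their selection did not use. RefSeq promoter windows of 300 bases, most of it upstream of a start site, on GRCm38.p6 (mm10) were searched on both strands for the interferon-stimulated response element, written as GAAA, any 2 bases and GAAA again. This element is bound by interferon-activated factors such as ISGF3 and the IRF proteins. Of 12 p200 genes with a window, 9 held it, 3 of them among the 5 p200 members with a window (Ifi205, Mnda and Mndal). The windows of Mb21d1, Trex1, Ikbke, Aim2, Pyhin1 and Ifi202b did not contain these letters. Over all 27025 genes with a window, 3.99% held the element. These genes share sequence by duplication, so the 9 matches are not independent. Stretches upstream of a RefSeq start site are printed on the strand of the gene, with the element in capitals, to show how alike they are:
Mnda: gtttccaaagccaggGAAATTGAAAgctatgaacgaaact
Ifi205: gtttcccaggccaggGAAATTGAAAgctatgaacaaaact
AI607873: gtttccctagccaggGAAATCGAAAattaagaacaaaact
Gm4955: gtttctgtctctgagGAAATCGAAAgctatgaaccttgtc
Pydc4: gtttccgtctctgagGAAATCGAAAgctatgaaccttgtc
Ifi203: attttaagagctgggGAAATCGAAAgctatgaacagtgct
All 6 genes lie on the minus strand of chromosome 1. The Mnda stretch is chr1:173913059-173913098, upstream of Mnda and within an intron that GENCODE release M21 gives the overlapping gene Mndal, and that of Ifi205 is chr1:174031865-174031904, outside annotated genes. The others are chr1:173741826-173741865 (AI607873), chr1:173491334-173491373 (Gm4955), chr1:173599321-173599360 (Pydc4) and chr1:173942503-173942542 (Ifi203). The Ifi203 stretch lies within an intron that M21 gives Ifi203 itself, so it is upstream only of the RefSeq start site. The Mndal stretch, chr1:173880199-173880238, has the same letters as that of Ifi203 and overlaps an M21 exon of Mndal. The element began 37 bases before the start site in Mnda and 134 bases before it in Ifi205. The version GAAATCGAAA was found in 7 genes, Mndal among them, and GAAATTGAAA in 2. The core of the NF-kappaB site, written as GGGA, any 4 bases and CC, was in the windows of Mb21d1, Mndal, Pyhin1, Ifi203 and BC094916. This was 1 of 3 sensor and STING pathway members and 4 of 12 p200 genes with a window, against 22.9% of all genes with one. The match of Pyhin1 is shown because this member differed most between the groups and lacks the first element:
Pyhin1: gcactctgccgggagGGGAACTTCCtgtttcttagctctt
This stretch is chr1:173630795-173630834 on the plus strand, and the element begins 49 bases before the start site. Whether the match bears on the level of Pyhin1 was not tested. A second interferon motif, the gamma-activated sequence TTCNNNGAA, was in 0 of the 8 members with a window and in 9.55% of all genes with one. A match of letters is a description and not evidence of binding.

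Of the 10 members, 6 rose in GFP-GR100 brains and 0 fell, where 2.19% of the 20987 genes tested rose. The members that rose were the p200 genes Ifi204, Pyhin1, Mnda and Mndal, together with STING and Ikbke. Mnda, and Ifi205 among the others, passed the filter on low counts only through the GFP-GR100 libraries. Every member had a log2 fold change above 0, as did 45.4% of all genes. An unadjusted p under 0.05 was found for 10 of 10, against 1728 genes higher and 1546 lower of the 20987 tested. The median log2 fold change was 1.0 over the 10 members and -0.02 over all genes tested. All GFP-GR100 values lay above all GFP values for 8 members, which was so for 5.03% of genes. Without the GFP-GR100 3 library only Ifi204 and Pyhin1 still passed, and with all expressed genes tested (no filter on low counts) 8 members did. The members were chosen with earlier results of these data known.

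**Figure D1:**
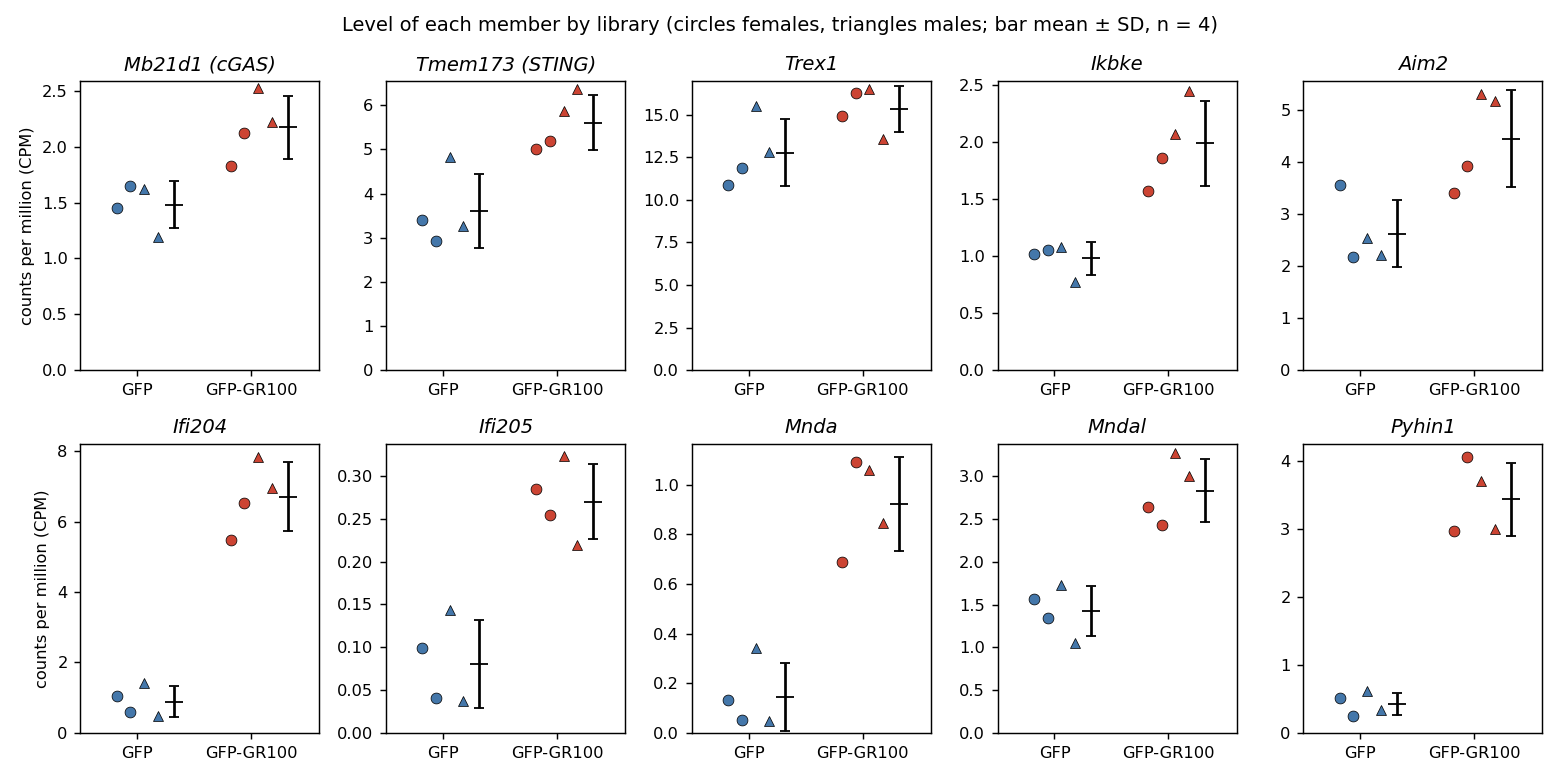
CPM of the 10 members in each library, with females as circles, males as triangles, GFP in blue, GFP-GR100 in red and a black bar for the mean ± SD of each group (n = 4). The groups overlap only for Trex1 and Aim2, and the separation is widest for Ifi204, Mnda and Pyhin1.

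Pyhin1, a p200 gene whose product has a pyrin domain, rose most. It was at 0.511, 0.243, 0.611 and 0.335 CPM in GFP 1 to 4 and at 2.97, 4.06, 3.71 and 3.00 CPM in GFP-GR100 1 to 4. The lowest GFP-GR100 library was therefore well above the highest GFP library. The group means were 0.425 ± 0.166 and 3.43 ± 0.540 CPM (SD, n = 4), a difference of 8.08-fold (log2 fold change 3.01, SE 0.27, adjusted p = 5.55e-05). By p-value it ranked 23 of the 20987 genes tested. It lies on chromosome 1 from 173630917 to 173647928, and M21 calls the same gene Ifi209. A share of 33.4% of its 50-base stretches also occurs in the p200 gene Ifi214, so counts for the pair may not be fully separate.

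Ifi204, the p200 gene often regarded as the mouse counterpart of the DNA sensor IFI16, rose almost as much. Its values were 1.06, 0.594, 1.42 and 0.484 CPM in GFP 1 to 4 and 5.47, 6.54, 7.84 and 6.94 CPM in GFP-GR100 1 to 4. The groups did not overlap, and the means of 0.889 ± 0.433 and 6.70 ± 0.981 CPM (SD, n = 4) gave a 7.52-fold difference (log2 fold change 2.91, SE 0.30, adjusted p = 0.000663). Ifi204 lies from 173747293 to 173766943 on chromosome 1. It shares 19.2% of its 50-base stretches with other p200 genes.

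Mnda also rose steeply but from very few reads. The GFP libraries held 8, 4, 31 and 4 counts, or 0.132, 0.0540, 0.344 and 0.0496 CPM, and the GFP-GR100 libraries held 63, 86, 82 and 58 counts, or 0.690, 1.09, 1.06 and 0.848 CPM. GFP 3 was the highest GFP library and still lay under every GFP-GR100 library. Mnda was tested only because the GFP-GR100 libraries passed the filter on low counts. The difference was 6.43-fold (log2 fold change 2.68, SE 0.50, adjusted p = 0.0126), and without GFP-GR100 3 the adjusted p was 0.0591. Without GFP 3 the log2 fold change was 3.62 (adjusted p = 0.000458). The row lies from 173896345 to 173913046 and is called Ifi211 in M21. Of its 50-base stretches, 72.8% occur in another p200 gene, most often Ifi205, so its counts may hold reads of other genes of the family.

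Mndal, whose gene overlaps both Mnda and Ifi203 from 173857220 to 173942491, rose less. It was at 1.57, 1.34, 1.73 and 1.05 CPM in GFP 1 to 4 and at 2.64, 2.43, 3.27 and 3.00 CPM in GFP-GR100 1 to 4. The groups did not overlap, and the fold was 1.98 (log2 fold change 0.99, SE 0.19, adjusted p = 0.0120). The call was lost without GFP-GR100 3 (adjusted p = 0.0597). Mndal shares 17.7% of its 50-base stretches with other p200 genes.

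Ifi205 and Aim2, the other p200 members, did not pass the test. Ifi205 had 6, 3, 13 and 3 counts in GFP 1 to 4 and 26, 20, 25 and 15 counts in GFP-GR100 1 to 4, which is 0.0372 to 0.144 CPM against 0.219 to 0.323 CPM. The groups did not overlap, with a log2 fold change of 1.74 (SE 0.48, 95% interval 0.68 to 2.79, adjusted p = 0.0949). It passed without GFP 3 (adjusted p = 0.0479) and with no filter on low counts (adjusted p = 0.0391). Of its 50-base stretches, 18.6% occur in another p200 gene and 18.5% in Mnda, so these few counts may hold reads of Mnda. Ifi205 and Mnda entered the test through the GFP-GR100 libraries. The filter asks 4 libraries for a level of 0.131 CPM, computed before TMM scaling. For each of these genes only 1 GFP library reached it. The other 8 members reached it in all 8 libraries.

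Aim2 was at 3.56, 2.17, 2.55 and 2.22 CPM in GFP 1 to 4 and at 3.41, 3.93, 5.31 and 5.19 CPM in GFP-GR100 1 to 4. GFP 1 lay above GFP-GR100 1, and the highest values were those of the GFP-GR100 males. The log2 fold change was 0.75 (SE 0.20, 95% interval 0.32 to 1.18, adjusted p = 0.0791). It passed without GFP 1 (adjusted p = 0.00707), without GFP-GR100 1 (0.0431), with the share of ribosomal RNA counts in the model (0.00992), with DESeq2 (0.00923), with limma-voom (0.0451) and with no filter (0.000420). The deposited row of Aim2 runs from 173350879 to 173466040 and overlaps the neuronal adhesion gene Cadm3, but the 2 genes share no exonic base in M21.

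Of the pathway itself, STING (Tmem173, chromosome 18) rose moderately. It was at 3.4, 2.93, 4.82 and 3.26 CPM in GFP 1 to 4 and at 5.0, 5.20, 5.86 and 6.37 CPM in GFP-GR100 1 to 4. GFP 3 lay just under the lowest GFP-GR100 library, and the groups did not overlap. The fold was 1.56 (log2 fold change 0.64, SE 0.15, adjusted p = 0.0346). The call was kept without GFP 3 and lost without any 1 of the other 7 libraries (adjusted p from 0.0580 to 0.119) or without sex in the model (0.110), while the log2 fold change stayed between 0.57 and 0.80 when single libraries were left out.

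Ikbke, the kinase gene on chromosome 1 from 131254343 to 131279606, rose about as much as Mndal. Its values were 1.02, 1.05, 1.08 and 0.769 CPM in GFP 1 to 4 and 1.57, 1.86, 2.07 and 2.45 CPM in GFP-GR100 1 to 4. The groups did not overlap, and the fold was 2.01 (log2 fold change 1.01, SE 0.20, adjusted p = 0.0168). The call was lost without GFP-GR100 2 (0.0609), without GFP-GR100 3 (0.0591) and on deposited RPKM (0.0684 with 0.1 added and 0.0788 with 1 added before the logarithm).

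The sensor cGAS (Mb21d1, chromosome 9 from 78430526 to 78443237) did not pass. It was at 1.45, 1.65, 1.62 and 1.19 CPM in GFP 1 to 4 and at 1.83, 2.12, 2.52 and 2.22 CPM in GFP-GR100 1 to 4. The groups did not overlap, but the gap between GFP 2 and GFP-GR100 1 was small. The log2 fold change was 0.55 (SE 0.18, 95% interval 0.16 to 0.94, adjusted p = 0.163), and none of the 18 alternatives run gave a call.

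Trex1 had the highest level and the smallest difference of the members. It was at 10.9, 11.9, 15.5 and 12.8 CPM in GFP 1 to 4 and at 14.9, 16.3, 16.5 and 13.6 CPM in GFP-GR100 1 to 4, so that the groups overlapped through GFP 3 and GFP-GR100 4. The log2 fold change was 0.27 (SE 0.11, 95% interval 0.02 to 0.52, adjusted p = 0.282), and it passed only when both of these libraries were left out (log2 fold change 0.45, adjusted p = 0.0230). All 1147 exonic bases of Trex1 in M21 also belong to exons of Atrip on the same strand, and 95.8% of its 50-base stretches occur in Atrip transcripts. Atrip itself was at 33.0 ± 1.38 and 34.55 ± 2.59 CPM (SD, n = 4; log2 fold change 0.06, adjusted p = 0.729). Counts of the 2 genes may therefore not be separate.

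**Figure D2:**
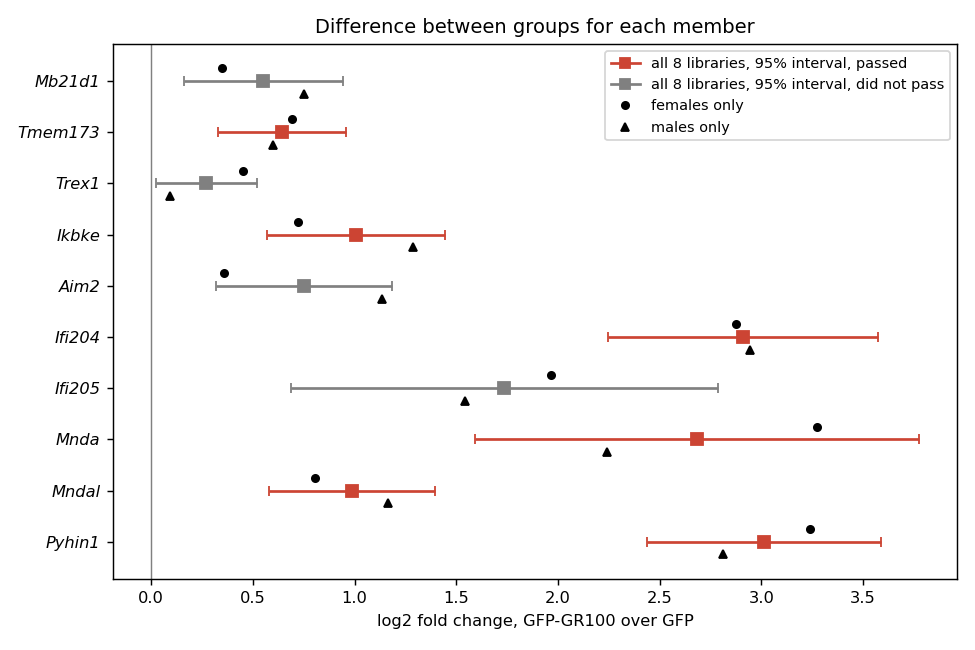
Log2 fold change, positive where GFP-GR100 was higher, for the 10 members, with squares and 95% intervals from all 8 libraries (red where the adjusted p was under 0.05) and small black symbols for females and males alone. Pyhin1, Ifi204 and Mnda lie between 2.68 and 3.01, and the females and males of every member lie above 0.

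In bulk tissue more cells of a type and more RNA per cell cannot be told apart, and markers of microglia moved with these genes. Of 20 microglia markers, 15 rose and 0 fell, with log2 fold changes from -0.02 to 1.42 and a median of 0.63. Trem2 had the largest rise (log2 fold change 1.42), followed by Ly86 (1.25), C1qa (1.15) and C1qc (1.02). The summed level was 592 to 840 CPM in GFP and 1014 to 1146 CPM in GFP-GR100, without overlap, and none of the markers was at 0. The log2 fold changes of STING, Ikbke, cGAS, Trex1, Aim2 and Mndal lay within the range of these markers, and those of Ifi204, Pyhin1, Mnda and Ifi205 above it. GFP 3, the GFP library with the most marker counts, also had the highest GFP value for 8 of the 10 members. The share of all genes with their highest GFP value in GFP 3 was not computed, so this count has no background. The part of the microglia markers in these results was not tested.

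Some markers of monocytes and neutrophils were also higher in GFP-GR100. Of 12 such markers 8 were tested, and the log2 fold changes of all 8 lay above 0 (median 0.79). Of these only 2 rose, Plac8 (log2 fold change 1.63) and the receptor Csf3r (1.30), and 3 were higher and 0 lower by unadjusted p under 0.05. The sum of this list was 9.40 to 14.6 CPM in GFP and 17.95 to 27.15 CPM in GFP-GR100, without overlap. The neutrophil marker Ly6g, singled out after its values were seen, was at 0 in every GFP-GR100 library and in 3 of 4 GFP libraries. The part of these markers in the results was not tested. Of 9 border macrophage markers 0 passed (1 higher and 0 lower by unadjusted p under 0.05, 0 calls with DESeq2), with sums of 25.2 to 28.2 and 25.2 to 34.2 CPM. Of 11 tested T, natural killer and B cell markers 0 passed (3 higher and 0 lower unadjusted, 0 calls with DESeq2), with sums of 21.1 to 28.1 and 23.2 to 32.5 CPM. Markers of astrocytes had a median log2 fold change of 0.08 and those of forebrain neurons of -0.12, each with 0 calls in edgeR and in DESeq2. At an unadjusted p under 0.05 there were 2 astrocyte markers higher and 1 neuron marker lower. Of 8 endothelial markers 0 passed in edgeR (2 higher and 1 lower unadjusted), with a median of 0.14 and sums of 163 to 185 and 168 to 238 CPM. DESeq2, the test with no filter and the model with the ribosomal RNA share each called 2 endothelial markers higher. With no filter, 1 border macrophage and 1 astrocyte marker were also called higher and 1 neuron marker lower. The model with the ribosomal RNA share called 1 astrocyte marker higher. Both fits on deposited RPKM, and the test without GFP 3 and GFP-GR100 4, called 1 T, natural killer or B cell marker higher.

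The p200 genes of chromosome 1 that are not members and could be tested moved in the same direction as the members. Between the outer ends of the p200 members, from 173350879 to 174031810, the table lists 20 genes over 680.9 kb. Of these 14 were tested, 11 rose and 0 fell, where 2.19% of all genes tested rose. The 7 tested p200 genes that are not members all rose, with log2 fold changes from 1.22 to 3.30. However, 5 of them needed the GFP-GR100 libraries to pass the filter. All but AI607873 and Ifi203 fell short of its level in at least 1 GFP library. Of their 50-base stretches, 5.39% (AI607873) to 26.3% (Gm16340) occur in another p200 gene. Their counts may therefore not be fully separate from each other or from those of the members. Pydc4 (Ifi213 in M21) was at 0.478, 0.311, 0.699 and 0.112 CPM in GFP 1 to 4 and at 3.23, 3.04, 4.82 and 5.04 CPM in GFP-GR100 1 to 4 (log2 fold change 3.30, SE 0.42, adjusted p = 0.00311). Gm4955 (Ifi206) had a log2 fold change of 3.07, Pydc3 (Ifi208) of 2.65, AI607873 (Ifi207) of 2.24 and BC094916 (Ifi214) of 2.14. All of these had groups that did not overlap.

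Smaller rises were found in Ifi203 (log2 fold change 1.22, adjusted p = 0.0450) and in Gm16340, which M21 calls Ifi203-ps (1.55, adjusted p = 0.0498). Ifi202b had 11 counts over all 8 libraries, at most 3 in a GFP library, and was not tested. Cadm3, which borders the cluster and is a neuronal gene, was at 478 ± 22.6 and 424 ± 49.6 CPM (SD, n = 4; log2 fold change -0.18, adjusted p = 0.329). Of the tested genes flanking the cluster, Ackr1, Dusp23, Fmn2 and Rgs7 had log2 fold changes from -0.07 to 0.11 and did not pass, while the immune receptor gene Slamf8 rose (log2 fold change 1.95, adjusted p = 0.00324).

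**Figure D3:**
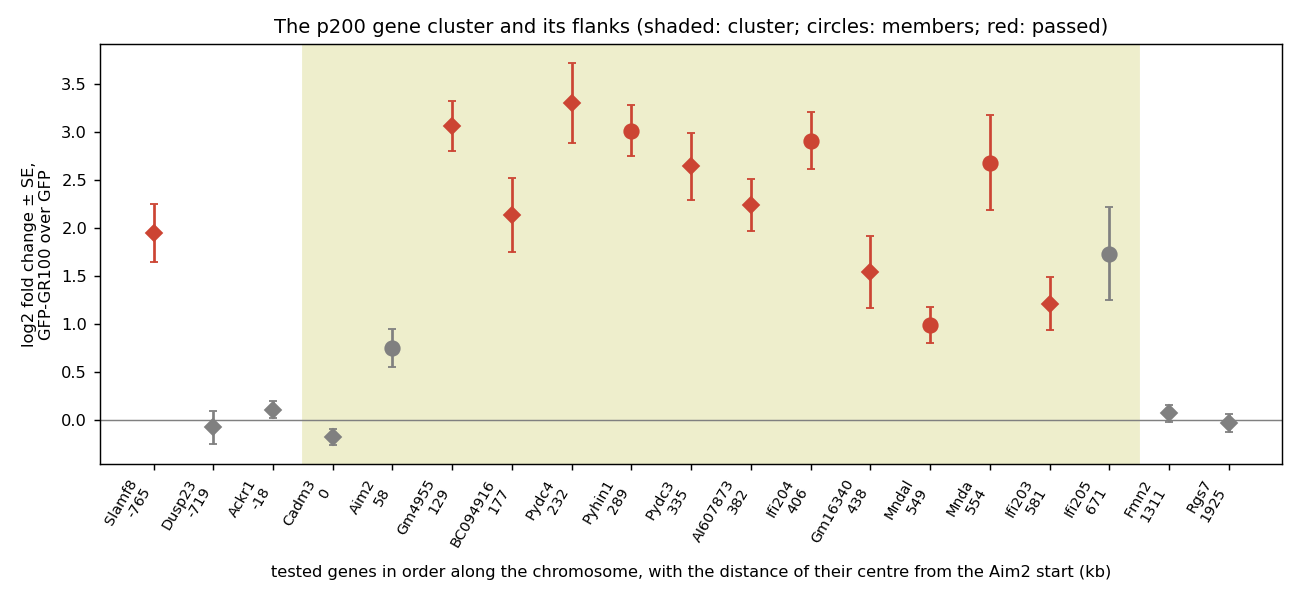
Log2 fold change ± SE, positive where GFP-GR100 was higher, for tested genes in their order along chromosome 1, with the distance of each gene's centre from the Aim2 start in kb under its name. The shaded genes are those of the cluster, circles are members, diamonds other genes and red marks an adjusted p under 0.05. From Gm4955 to Ifi203 every tested gene rose, and the flanking genes shown other than Slamf8 stay near 0.

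Levels can be compared between genes only per length, and on the deposited RPKM scale, which divides counts by depth and gene length, the order of the members differed between the groups. In GFP, Trex1 was highest at 9.53 ± 1.80 RPKM, STING next at 1.53 ± 0.394 and Aim2 at 0.729 ± 0.149 (SD, n = 4), and none of these ranges overlapped. Mndal (0.403), cGAS (0.350) and Ifi204 (0.244) followed with ranges that overlapped each other, and Ifi204 also overlapped Pyhin1 (0.117) and Mnda (0.0800). Ikbke (0.106) overlapped Pyhin1 and Mnda, and Ifi205 was lowest at 0.0188 RPKM and overlapped Mnda.

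In GFP-GR100, Trex1 (11.9 ± 1.07 RPKM) and STING (2.49 ± 0.253) were again highest, and Ifi204 stood at rank 3 with 1.92 ± 0.257 RPKM (SD, n = 4), clear of its neighbours. Aim2 (1.30) and Pyhin1 (0.990) overlapped, as did Pyhin1 and Mndal (0.841), and cGAS (0.538) and Mnda (0.528). Ikbke at 0.225 and Ifi205 at 0.0661 RPKM closed the order. The level of cGAS was thus below that of STING in both groups, and Ifi204 was below cGAS on average in GFP and above it in every GFP-GR100 library.

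The design allows females and males to be compared. All 10 members had a log2 fold change above 0 in both sexes, as did 23.3% of all genes. For Ifi204 it was 2.88 in females and 2.94 in males, for Pyhin1 3.24 and 2.81, and for Mnda 3.27 and 2.24. Aim2 had 0.36 in females and 1.14 in males, and Ikbke had 0.72 and 1.29. Trex1 went the other way, with 0.45 in females and 0.09 in males. None of these differences passed the test of the product of sex and group in edgeR, where 0.0524% of genes did. The smallest adjusted p was 0.268, for Aim2 (male minus female difference 0.78, SE 0.33). Aim2 was the only member with an unadjusted p under 0.05, which 3445 of the 20987 genes tested also had. DESeq2 also called 0 members. The ribosomal RNA share differs between libraries in the same pattern as the product of sex and group, so the 2 cannot be told apart. With the share in the model, 0 members and 377 of all genes had an unadjusted p under 0.05 for the product.

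A list of genes around the kinase step, among them adaptors of TBK1 and the other IKK kinases, gave no call. The list also holds adaptors of other sensing pathways and autophagy receptors, and it leaves out the member Ikbke, which rose. Of 16 tested, 0 passed in edgeR and in DESeq2, where 2.52% of all genes passed in either direction in edgeR. A list of this size cannot set 0 calls apart from that share. At an unadjusted p under 0.05 there was 1 higher and 2 were lower. Optn, an autophagy receptor that TBK1 phosphorylates, had the smallest p of the list, at 15.3 ± 0.968 and 18.3 ± 1.22 CPM (SD, n = 4; log2 fold change 0.26, adjusted p = 0.204). Tbk1 and Irf3 are given because STING acts through them, although the rule for naming genes does not reach them. Tbk1 was at 43.2 ± 4.68 and 42.1 ± 3.23 CPM and Irf3 at 15.2 ± 3.15 and 14.4 ± 2.06 CPM (SD, n = 4), with log2 fold changes of -0.04 and -0.07. The groups overlapped for both genes.

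Of 25 tested genes that regulate STING or carry it through the secretory pathway, 2 rose and 0 fell. Usp18, which removes Isg15 and limits interferon signalling, rose from 2.02 ± 1.02 to 25.9 ± 2.91 CPM (SD, n = 4; log2 fold change 3.68, adjusted p = 0.00582), and the ubiquitin ligase gene Trim56 from 7.89 ± 2.75 to 15.1 ± 1.22 CPM (log2 fold change 1.0, adjusted p = 0.00280). The median of this list was -0.07, near that of all genes. Of 21 other DNA sensors 1 rose, against 2.19% of all genes, which was the endosomal receptor Tlr9, from 1.33 ± 0.426 to 3.07 ± 0.642 CPM (log2 fold change 1.24, adjusted p = 0.0120), and the list had a median of -0.06. The sensor gene Zbp1, named after its values were seen, had the largest log2 fold change of the list (1.93, SE 0.47, adjusted p = 0.0958). Its groups did not overlap, at 0.323 to 1.89 CPM in GFP and 2.64 to 4.48 CPM in GFP-GR100. Without GFP-GR100 2 or GFP-GR100 3 the count of these sensors was 0, and with DESeq2, limma-voom, deposited RPKM or no filter it was 2.

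Among 12 tested nucleases and other genes of nucleic acid clearance, 2 rose. These were the endolysosomal exonuclease gene Pld4, at 9.67 ± 2.44 and 18.1 ± 1.06 CPM (SD, n = 4; log2 fold change 0.91, adjusted p = 0.00259), and the dNTP hydrolase gene Samhd1, at 15.3 ± 1.27 and 20.2 ± 1.34 CPM (0.40, adjusted p = 0.0442). With any single library left out other than GFP 3, only 1 gene of this list passed. Of 6 partners of the AIM2 inflammasome 3 rose, the pore-forming Gsdmd (log2 fold change 1.0, adjusted p = 0.00644), the adaptor Pycard (0.96, 0.0314) and the protease Casp8 (0.69, 0.0225). Only 1 of the 6 passed without GFP 2, GFP 4, GFP-GR100 2 or GFP-GR100 3.

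Transcripts of type I interferons were close to undetectable. Over the 8 interferon-alpha and interferon-beta genes listed, the summed count was 0 in 6 libraries, 1 in GFP 2 and 4 in GFP-GR100 3. The 4 counts were all at Ifnb1, which is named here after its values were seen. At this depth a count of 0 allows up to 3 counts, or 0.0337 to 0.0455 CPM before TMM scaling, and no difference was detectable. Of 8 genes of interferon receptor signalling 4 rose and 0 fell, with log2 fold changes over the 8 from -0.19 to 2.85. They included Irf7 (log2 fold change 2.85), Irf9 (1.95) and Stat2 (1.08). The chemokine gene Cxcl10, an output of the pathway, was at 1.85, 0.446, 3.25 and 0.298 CPM in GFP 1 to 4 and at 13.9, 16.4, 16.3 and 17.3 CPM in GFP-GR100 1 to 4. Its groups did not overlap, the GFP libraries were spread widely, and it did not pass (log2 fold change 3.47, SE 0.75, adjusted p = 0.110).

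**Figure D4:**
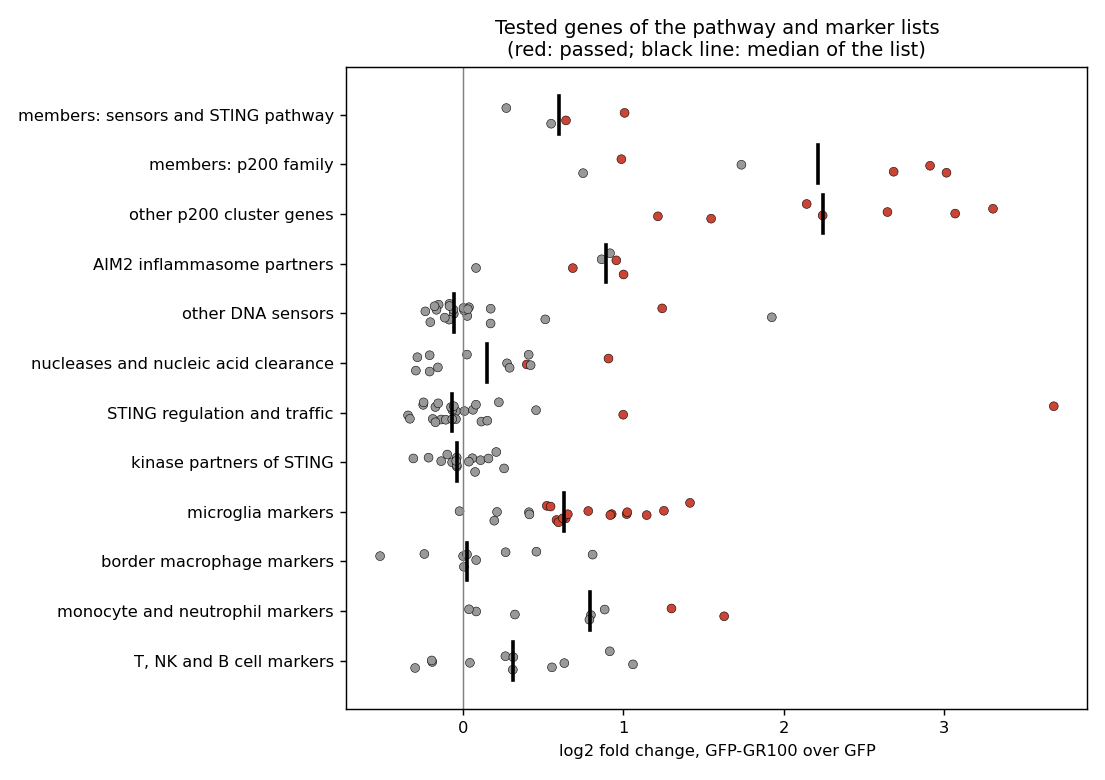
Log2 fold change, positive where GFP-GR100 was higher, for the tested genes of the members, 6 pathway lists and 4 marker lists of immune cells, 1 point per gene, red where the adjusted p was under 0.05, with a black line at each median. The p200 lists have medians of 2.21 and 2.24, the microglia markers of 0.63, and the partners of the kinase step stay between -0.31 and 0.26.

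For each member the 3 genes of at least 1 CPM with the most similar profile were found by the root-mean-square difference of log2 CPM, centred per gene, over the 8 libraries. Closest to Ifi204 were Phf11d (0.09), Rsad2 (0.16) and Oas1a (0.16), and closest to Pyhin1 were Rtp4 (0.22), Rsad2 (0.22) and Ifi204 (0.25). Near Mnda were H2-Q6 (0.15), Ccl12 (0.22) and H2-Q7 (0.28), and near Ifi205 were Igtp (0.15), H2-K1 (0.16) and Psmb8 (0.17). Near Mndal were Nmi (0.09), Klhl6 (0.10) and Tnfrsf14 (0.11). STING was closest to the microglial receptor gene P2ry13 (0.08), then Gfm2 (0.10) and Irf1 (0.10). Ikbke was closest to Hpgds (0.10), Trim12a (0.105) and Apbb1ip (0.11), and Aim2 to Cd36 (0.11), Ccdc79 (0.11) and Casp1 (0.12). The nearest genes to cGAS were Gm15706 (0.08), Cirbp (0.09) and AC113302.1 (0.09), and to Trex1 Gm29434 (0.04), Tcf19 (0.05) and A230087F16Rik (0.06). The differences are on the log2 scale, and they describe these libraries only.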

How the data were processed

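The authors' deposited table gives whole-number counts per gene and RPKM for each library. Per the submitters' processing notes, reads were handled with CASAVA and TopHat2 version 2.1.0 on mm10, and DESeq2 and R version 3.4.1 were also used. The labels' protocols name total RNA and a stranded kit. The counter, annotation release and strand setting are not stated there. Deposited RPKM and lengths gave back the summed gene counts (ratio 1.00023 to 1.00024). No pair of libraries in a group was identical, with a chi-square of at least 15.6 per degree of freedom. The expressed construct was not looked for here.

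Counts were tested with edgeR version 4.0.16 in R version 4.3.3 on all genes kept by filterByExpr (minimum count 10, total 15), with TMM scaling, sex and group in the model, the robust quasi-likelihood test and Benjamini-Hochberg adjustment over the 20987 genes at 0.05. SE were derived from F. On simulated data, 75.5% of 98 genes changed by 1 and 89.6% of 96 genes changed by 2 on the log2 scale were called. Among the 20735 genes tested there were also 19 false calls, a larger share of all calls than the 0.05 aimed at. Alternatives included DESeq2 version 1.42.0 and limma version 3.58.1.

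The members and lists were chosen with earlier results of these data known, as was leaving out GFP 3 with GFP-GR100 4. Named were all members, up to 4 called genes per list or the one of smallest p, the genes of the p200 region and the 3 most similar genes. List symbols absent from the table were matched through GENCODE M21. RefSeq promoters (GRCm38.p6) were matched for 8 of 10 members, all but Tmem173 and Ifi204. Protein identity was not computed, and some genes of the lists and flanks are not reported here.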

Additional observations from a re-analysis of the deposited data

How the results depend on the processing

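Over 18 alternatives the members gave 178 log2 fold changes, and all 178 were above 0. On the threshold of 0.05, 154 stayed on the same side, 14 lost a call and 10 gained one. Ifi204 and Pyhin1 passed in all 18. The number of members that rose was 6, and it was 5 to 8 under the alternatives that leave out no single library and 2 to 7 when 1 library was left out, with the 2 without GFP-GR100 3. Leaving out 1 library gave 304 to 514 genes higher, 19 to 77 genes lower and 1 to 828 genes with a difference between sexes, against 460, 68 and 11.

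With no filter 1168 genes were higher, 361 lower and 1353 differed between sexes, and with DESeq2 these counts were 724, 200 and 567. The number of genes lower was 36 when a mean of 1 CPM was required, 32 and 30 with limma-trend on log2(RPKM + 0.1) and log2(RPKM + 1), 35 without sex in the model, 226 with the ribosomal RNA share in the model and 115 without GFP 3 and GFP-GR100 4. With that share in the model edgeR called 0 genes for the difference between sexes, with 377 at an unadjusted p under 0.05. The causes were not tested.

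Counts of genes that rose ran over the alternatives from 0 to 3 for the sensor and STING pathway members (2), 2 to 6 for the p200 members (4), 3 to 7 for the other p200 genes (7, with the 3 when a mean of 1 CPM was required and fewer were tested), 1 to 4 for the inflammasome partners (3), 0 to 2 for other DNA sensors (1), 1 to 3 for nucleases (2) and 0 to 2 for outputs (0). Under 3 counts, or 0.0337 to 0.0455 CPM before TMM scaling, no level can be read. No paired analysis was possible because the labels give no replicate numbers, and the numbers used here only name animals.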
